A study of Mus musculus with 12 samples.

Results

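The genes described here are 39 genes that mark or serve macrophages and microglia, measured in RNA of the retinal pigment epithelium (RPE) of aged and young mice. They were chosen by symbol, as the genes of the deposited tables whose Entrez gene ID carries 1 of 39 symbols. All 39 were found among the 27179 genes of the tables. Of these, 38 were among the 14219 genes tested between the ages, and Siglech, with a mean normalized count of 11.7 against a minimum of 20, was not. RPE was taken from both eyes of 3 wild-type male C57BL/6J mice aged 22 months (22m) and of 3 wild-type male C57BL/6J mice aged 5 months (5m), which gave 12 libraries of 9171131 to 12324029 raw counts at 22m and 9758665 to 13217909 at 5m. The labels name no transgene and no treatment for either age. Mice 1 and 2 of each age were labelled batch 1 and mouse 3 of each age batch 2. The cells were released from the eyecup with hyaluronidase and trypsin after the retina was lifted off, so that a suspension could also hold other cells of the eyecup, and no sort for RPE cells was described.

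Macrophages are phagocytes that live in nearly every tissue. Their survival depends on signals through the receptor Csf1r, and the transcription factor PU.1, the product of Spi1, sets up much of their gene program. Microglia are the macrophages of the retina and brain, whereas the choroid behind the RPE holds perivascular macrophages with other surface proteins. With age, microglia and macrophages can collect at the RPE and in the space between it and the photoreceptors. Many of these proteins work together. Fc receptors and Trem2 bind antibody or lipid and signal through the small adaptors Fcer1g and Tyrobp, which carry the tyrosine motif called ITAM, while the integrins Itgam and Itgax and the lectin Clec7a bind complement fragments and fungal glucan. Bulk RNA cannot tell more cells of a type from more RNA of these genes per cell, and this holds for every value reported here.

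Promoters are shown for a few genes whose window held a searched motif, because PU.1 type sites are a known feature of macrophage promoters. RefSeq windows from 250 bases before to 50 bases after a transcription start on GRCm38.p6 were at hand for 29 of the 39 genes. The letters GAGGAAG (PU.1 type), CACGTG (the E-box of the MiT factors) and TGACTCA (AP-1) were searched on both strands. GAGGAAG was in a window of 11 of the 29 genes (37.9%), namely Cd53, Csf2ra, F13a1, Fcgr1, Fcgr3, Itgam, Laptm5, Mrc1, Pf4, Spp1 and Trem2, against 16.1% of the tested genes and 15.4% of all genes with a window. TGACTCA was in 4 of the 29 (13.8%), namely Cd68, Folr2, Gpnmb and Itgax, against 4.46% of tested genes and 5.95% of all genes. CACGTG was in 2 (6.9%), P2ry12 and Siglech, against 11.5% of tested genes and 8.09% of all genes. The windows of Itgax, Csf2ra and Spp1, which passed the test between the ages, and of Laptm5 and Trem2, which did not, are printed with each match in capitals. Those of Clec7a and Ptprc, which also passed, held no match to any of these motifs and are not printed. A match on the opposite strand reads CTTCCTC or TGAGTCA. In Csf2ra the matches begin 14 and 8 bases before the start and share 1 base. The match begins 56 bases before the start in Itgax, 39 in Laptm5, 41 in Trem2 and 113 in Spp1.
Itgax, chr7:128129300-128129599, plus strand: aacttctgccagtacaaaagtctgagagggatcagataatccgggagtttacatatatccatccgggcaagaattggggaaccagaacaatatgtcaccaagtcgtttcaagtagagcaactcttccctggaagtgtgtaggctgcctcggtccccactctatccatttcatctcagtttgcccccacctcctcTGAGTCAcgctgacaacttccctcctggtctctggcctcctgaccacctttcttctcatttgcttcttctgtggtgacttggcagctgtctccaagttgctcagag
Csf2ra, chr19:61228369-61228668, minus strand: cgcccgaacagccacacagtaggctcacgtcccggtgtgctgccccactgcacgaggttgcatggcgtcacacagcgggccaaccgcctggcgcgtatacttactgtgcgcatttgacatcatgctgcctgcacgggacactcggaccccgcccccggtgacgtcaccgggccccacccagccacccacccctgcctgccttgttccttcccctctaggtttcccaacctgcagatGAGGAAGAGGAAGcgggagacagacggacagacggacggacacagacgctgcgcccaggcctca
Laptm5, chr4:130913066-130913365, plus strand: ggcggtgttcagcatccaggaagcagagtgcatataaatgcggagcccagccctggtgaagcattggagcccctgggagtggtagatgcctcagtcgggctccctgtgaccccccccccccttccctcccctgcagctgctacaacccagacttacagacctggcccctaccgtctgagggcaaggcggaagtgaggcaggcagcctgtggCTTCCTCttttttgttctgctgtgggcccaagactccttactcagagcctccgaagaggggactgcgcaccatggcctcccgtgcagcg
Trem2, chr17:48346151-48346450, plus strand: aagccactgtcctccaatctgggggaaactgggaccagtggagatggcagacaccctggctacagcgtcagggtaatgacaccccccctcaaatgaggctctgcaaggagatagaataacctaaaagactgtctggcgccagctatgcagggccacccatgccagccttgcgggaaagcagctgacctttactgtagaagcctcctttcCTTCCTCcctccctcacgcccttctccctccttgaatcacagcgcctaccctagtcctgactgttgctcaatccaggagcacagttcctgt
Spp1, chr5:104434861-104435160, plus strand: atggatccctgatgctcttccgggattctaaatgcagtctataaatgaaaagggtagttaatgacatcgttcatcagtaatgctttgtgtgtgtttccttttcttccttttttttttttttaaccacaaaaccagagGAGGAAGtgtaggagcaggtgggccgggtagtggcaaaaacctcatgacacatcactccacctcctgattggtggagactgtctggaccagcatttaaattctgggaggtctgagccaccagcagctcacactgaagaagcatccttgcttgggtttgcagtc
Of the 6 genes that passed the test, 5 had a window, and GAGGAAG was in that of 2 (Csf2ra and Spp1) and in none of the windows of the other 3 (Itgax, Clec7a and Ptprc). A second window of Spp1 held no match. A match is a string of letters and not a measured site.

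Most macrophage and microglia genes stood higher at 22m than at 5m, by a moderate amount. The fitted log2 fold change, 22m over 5m, was above 0 for 33 of the 38 tested genes and below 0 for 5, with a median of 0.52, while the median of all tested genes was -0.01. By edgeR's quasi-likelihood test on the counts of both eyes of a mouse summed (3 mice per age, a batch term, Benjamini-Hochberg adjustment over all 14219 genes), a gene was called where the adjusted p was under 0.05 and the log2 fold change was past 0.25 in either direction, as the study set them. Itgax, Clec7a, Ptprc, Csf2ra and Tmem119 were called higher, which is 5 of 38 (13.2%), against 5.41% of all tested genes called higher. Spp1 was called lower, which is 1 of 38 (2.63%), against 2.26% of all tested genes. At an unadjusted p under 0.05, 24 of the 38 (63.2%) were higher and 2 lower, against 16.5% higher and 14.6% lower among all tested genes. The genes without a call thus leaned the same way. On GRCm38 the called genes span Itgax at chr7:128129526-128150657, Clec7a at chr6:129461591-129472785, Ptprc at chr1:138062859-138175756, Csf2ra at chr19:61217191-61228461, Tmem119 at chr5:113793729-113800396 and Spp1 at chr5:104435111-104441053.

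**Figure D1:**
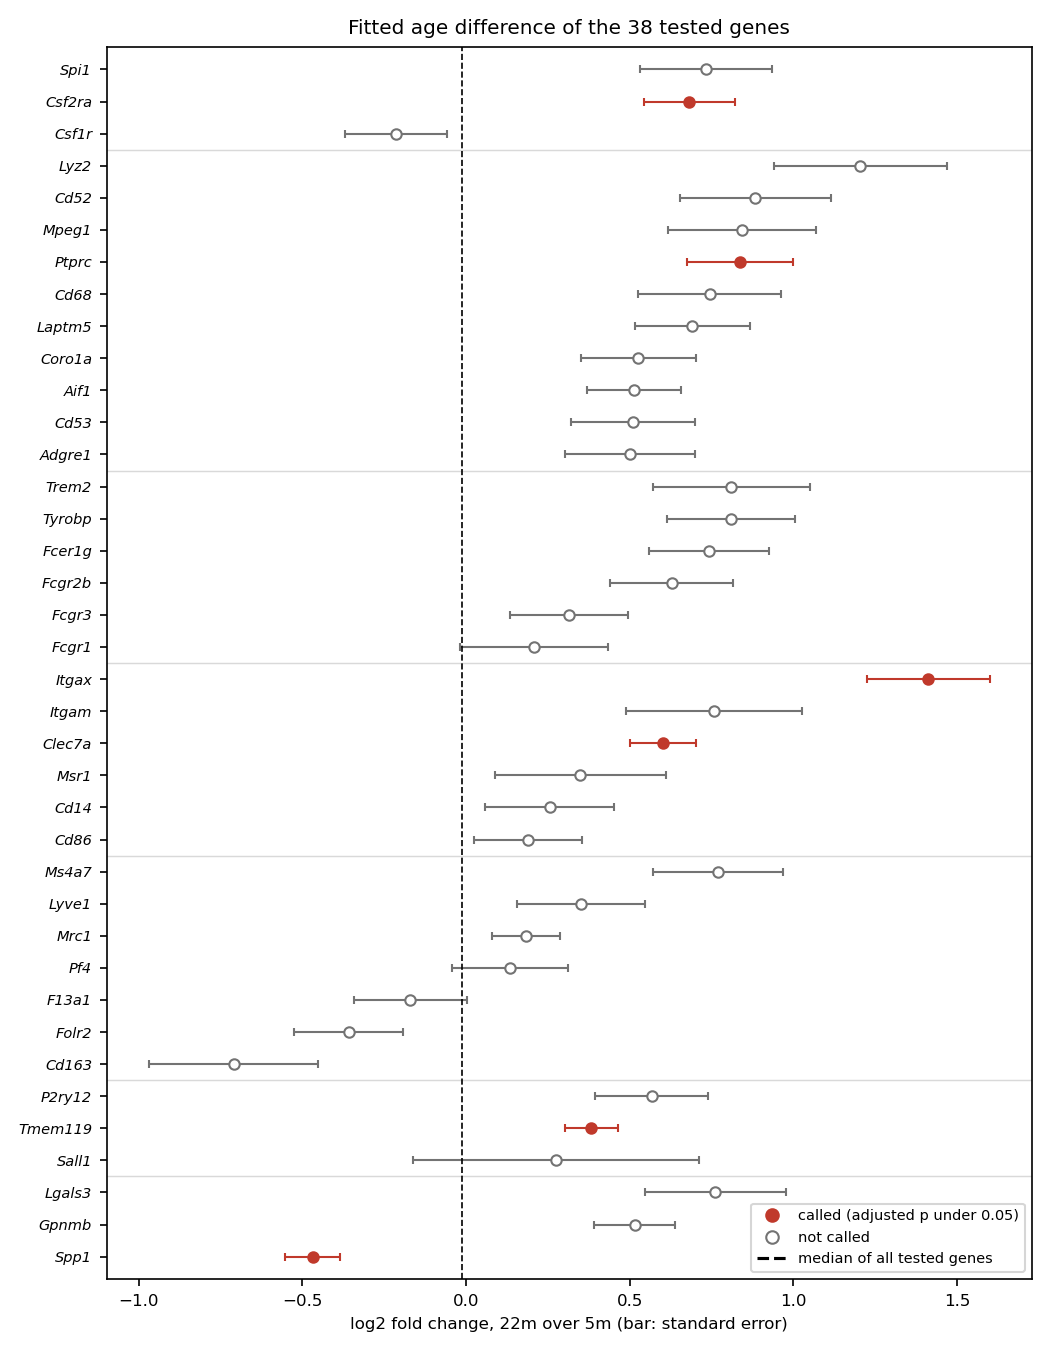
Fitted log2 fold change (x axis, 22m over 5m) with its standard error for each of the 38 tested genes (y axis, grouped by role between grey lines), red where called and open where not, with the median of all tested genes dashed. Open symbols to the right of the dashed line outnumber all others, and Itgax at 1.41 lies farthest to the right.

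The genes took a larger share of all counts at 22m in every mouse. Together the 39 genes held 0.795%, 0.848% and 0.845% of the raw counts of 22m mice 1, 2 and 3, and 0.391%, 0.413% and 0.690% of those of 5m mice 1, 2 and 3. Lyz2 and Gpnmb made up most of this, and without them the share was 0.278%, 0.295% and 0.295% at 22m and 0.163%, 0.182% and 0.279% at 5m. Without these genes, then, 5m mouse 3 lay just above 22m mouse 1 and the ages overlapped.

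Levels differed widely among the genes. Per kilobase of annotated exon (GENCODE vM21), and as the mean over the 6 mice, Lyz2 (lysozyme) stood at 1870 CPM (counts scaled to library size by edgeR's TMM method), far above Gpnmb at 260.1 and Spp1 at 157. Mpeg1 (134.6), Tyrobp (108.8), Lgals3 (80.4), Cd68 (78.9), Csf1r (58.9) and Fcer1g (56.0) followed. The lowest were Lyve1 (1.04), Sall1 (0.818), Cd163 (0.776) and Siglech (0.298). Neighbours in this order, such as Lgals3 and Cd68, lay closer together than the spread between mice, whereas Lyz2 was the top of the 39 genes at either age. Reads of Lyz2 and its near-identical copy Lyz1 may have been divided by the counting and cannot be resolved from these counts.

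**Figure D2:**
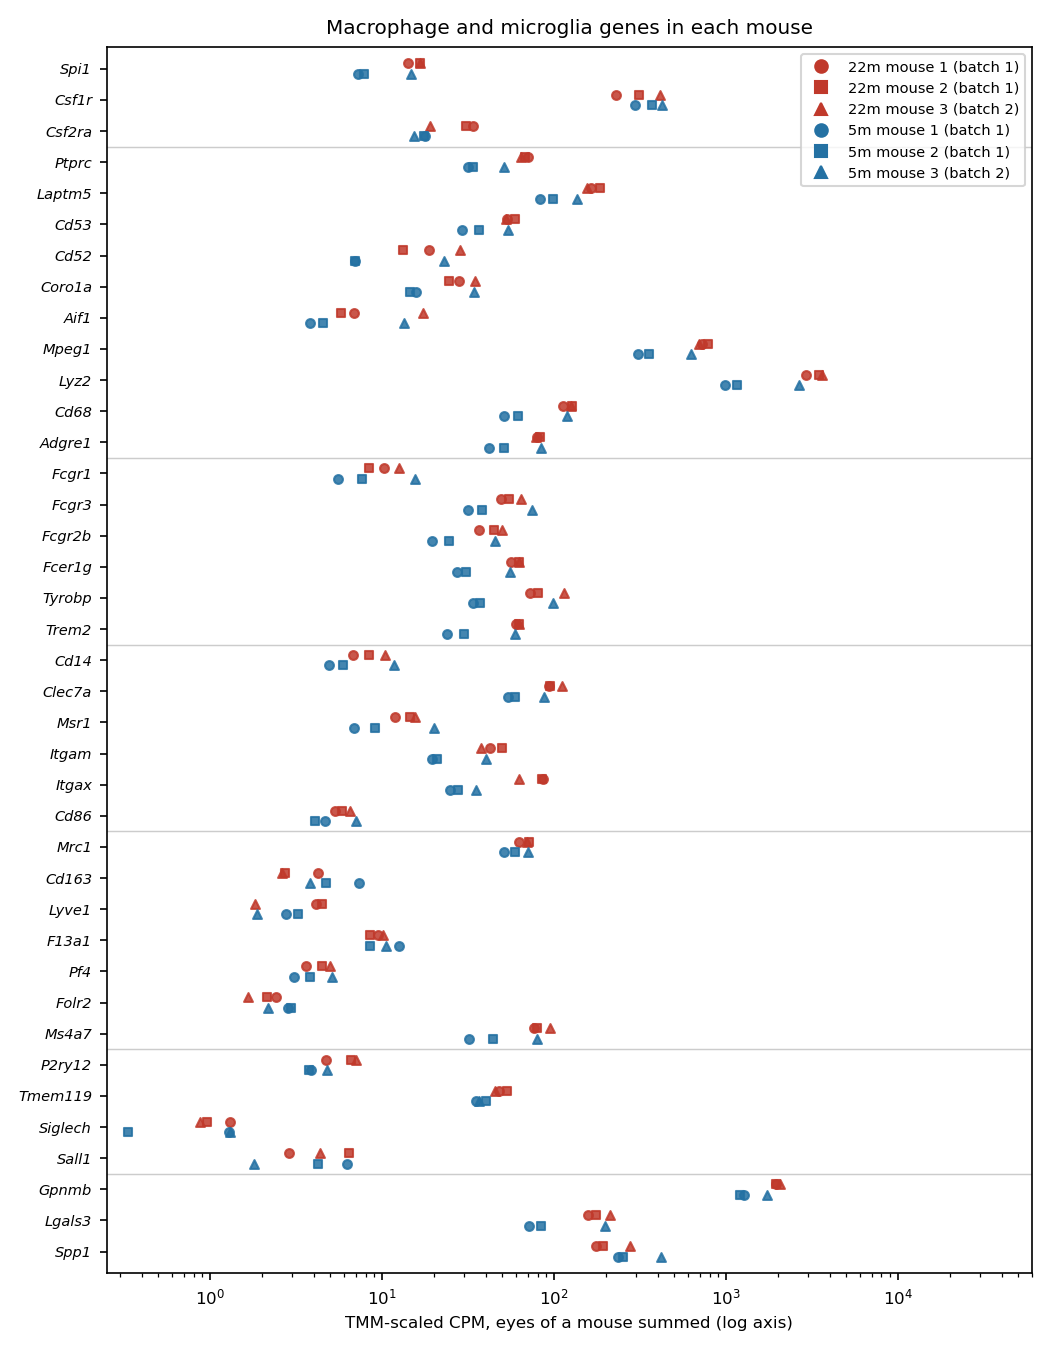
TMM-scaled CPM of each of the 39 genes (rows, grouped by role between grey lines) in each mouse on a log axis, 22m mice in red above 5m mice in blue, with a triangle for mouse 3 of each age (batch 2). For most leukocyte genes the blue triangle stands near the red symbols and apart from the blue circle and square.

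The lineage factor and the growth factor receptors did not move as 1 group. Csf2ra, the ligand-binding chain of the GM-CSF receptor, had 33.9, 30.6 and 18.9 CPM in 22m mice 1, 2 and 3, against 17.7, 17.5 and 15.4 CPM in 5m mice 1, 2 and 3. The ages did not overlap, and 22m mouse 3 was close to the 5m mice. Its log2 fold change was 0.68 (standard error 0.14, adjusted p = 0.0450 by edgeR). Spi1, the gene of PU.1, had 14.1, 16.6 and 16.6 CPM at 22m, against 7.20, 7.82 and 14.7 CPM at 5m, which gave 0.73 on the log2 scale (standard error 0.20, adjusted p = 0.0788). Only 5m mouse 3 reached the 22m values. Csf1r, the receptor for CSF1 and IL-34, had 228, 310.1 and 413.6 CPM at 22m, against 295, 368 and 424.5 CPM at 5m. The ages overlapped throughout, and the log2 fold change was -0.21 (standard error 0.15, adjusted p = 0.383). The value was 0.0025 in left eyes alone. With each eye as a sample it was 0.040 with the rod score of the eye, the mean log2 CPM of rod photoreceptor genes, as a covariate and -0.22 with no such covariate.

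All 10 genes of proteins shared by leukocytes or macrophages at large were fitted higher at 22m, with a median log2 fold change of 0.72, and all 10 had an unadjusted p under 0.05. Only Ptprc was called by edgeR, while DESeq2 on mouse sums called 6 higher. DESeq2 on mouse sums called 10.6% of all tested genes higher, against 5.41% by edgeR. Ptprc encodes CD45, the tyrosine phosphatase on all white blood cells. It had 70.5, 68.0 and 64.3 CPM at 22m, against 31.4, 33.6 and 50.9 CPM at 5m. The 3 mice of 22m lay close together above those of 5m, and the log2 fold change was 0.84 (standard error 0.16, adjusted p = 0.0425). Laptm5, a lysosomal membrane protein of blood cells, had 164, 184.3 and 154.2 CPM at 22m, against 83.0, 97.9 and 135.7 CPM at 5m. Its mice did not overlap either, with a difference of 0.69 on the log2 scale (standard error 0.18) and an adjusted p of 0.0690, above the threshold. Lyz2 had 2913, 3469 and 3597 CPM at 22m, against 980.3, 1154 and 2650 CPM at 5m. Its fold change was the largest of these 10 genes (log2 1.20, standard error 0.27), with an adjusted p of 0.0514, just above the threshold. It was called when no low-count filter, or edgeR's own filter, was used. Mpeg1, a pore-forming protein of phagocytes, had 726.8, 788.6 and 692.7 CPM at 22m, against 308.7, 356.4 and 626.5 CPM at 5m. These values too did not overlap, and the adjusted p was 0.0767. The remaining genes were Cd53, Cd52, Coro1a, Aif1, Cd68 (a lysosomal glycoprotein of macrophages) and Adgre1 (F4/80), with log2 fold changes between 0.50 and 0.88 and adjusted p between 0.0723 and 0.153. In each of these 6 genes 5m mouse 3 lay within or above the values of 22m.

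**Figure D3:**
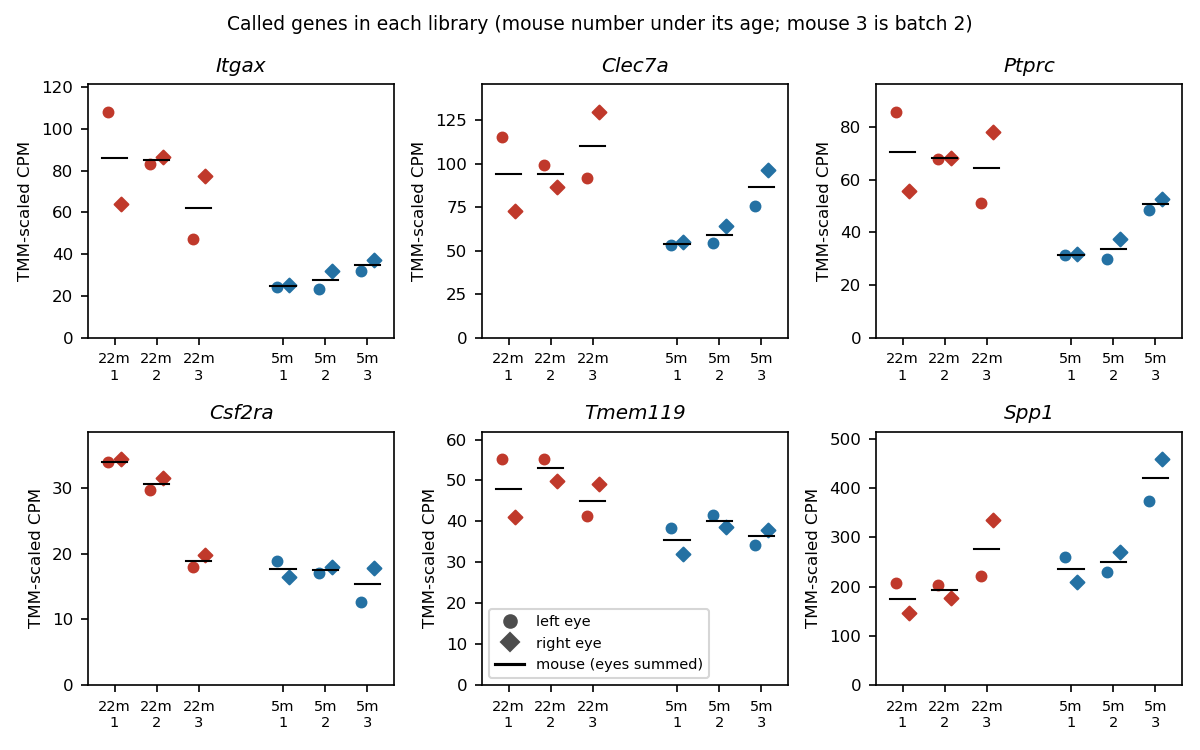
TMM-scaled CPM (y axis, from 0) of the 6 called genes in each library, circles for left and diamonds for right eyes, with 22m mice in red at the left, 5m mice in blue at the right, and a bar for both eyes of a mouse summed. Itgax has no 22m library below a 5m library, while Spp1 of 22m mouse 3 lies among the 5m values.

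Of the Fc receptors, their adaptors and Trem2, 0 of 6 were called by edgeR, although 4 of 6 were higher at an unadjusted p under 0.05 and DESeq2 on mouse sums called 4 higher (Fcer1g, Fcgr2b, Tyrobp and Trem2). Tyrobp, the ITAM adaptor of Trem2, had the smallest p, with 72.4, 80.6 and 113.5 CPM at 22m and 33.7, 36.9 and 98.3 CPM at 5m. 5m mouse 3 lay inside the 22m range, and the log2 fold change was 0.81 (standard error 0.20, adjusted p = 0.0624). Trem2, a lipid receptor, stood at 60.0, 62.8 and 62.6 CPM at 22m and 24.0, 30.1 and 59.1 CPM at 5m, with a log2 fold change of 0.81 (adjusted p = 0.0906). The 22m mice were nearly alike and 5m mouse 3 was just under them. Fcgr1, the high-affinity IgG receptor, had 10.2, 8.37 and 12.5 CPM at 22m and 5.54, 7.68 and 15.5 CPM at 5m. Fcgr3, a low-affinity receptor, had 48.9, 54.7 and 64.5 CPM at 22m and 31.4, 37.8 and 74.5 CPM at 5m. In both the highest mouse of all 6 was 5m mouse 3. Their log2 fold changes were 0.21 (adjusted p = 0.558) and 0.31 (adjusted p = 0.285). Fcgr2b, the inhibitory Fc receptor, and Fcer1g, the adaptor of the activating ones, were at 0.63 and 0.74. The Fc receptor genes are paralogs, and reads they share cannot be resolved from these counts.

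Among receptors of pattern recognition, adhesion and costimulation, Itgax and Clec7a were called by edgeR and the other 4 of 6 were not. DESeq2 on mouse sums also called Itgam. Itgax encodes CD11c, an integrin of dendritic cells and of activated microglia. It had 85.9, 84.9 and 62.1 CPM at 22m, against 24.7, 27.6 and 35.0 CPM at 5m. No mouse and no library of 22m lay below 1 of 5m, and the fold was 2.66 (log2 1.41, standard error 0.19, adjusted p = 0.0265), the largest among the 38 genes. Clec7a, the lectin Dectin-1, had 93.9, 94.1 and 110.3 CPM at 22m, against 53.9, 59.3 and 86.8 CPM at 5m. Its mice did not overlap, and the log2 fold change was 0.60 (standard error 0.10, adjusted p = 0.0332). Cd14, the co-receptor for endotoxin, had 6.76, 8.37 and 10.3 CPM at 22m, against 4.88, 5.88 and 11.7 CPM at 5m, and overlapped (log2 0.25, adjusted p = 0.410). The log2 fold changes of Msr1 (a scavenger receptor), Cd86 (a costimulatory ligand) and Itgam (CD11b) were 0.35, 0.19 and 0.76, with adjusted p of 0.395, 0.467 and 0.127. Itgam and Itgax encode alpha chains that pair with the same beta chain, and the difference between their fold changes was not tested.

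Genes of border and perivascular macrophages, the type known from the choroid and the meninges, were fitted on both sides of 0, with a median log2 fold change of 0.13. By edgeR 0 of 7 were called, and 1 was higher and 1 lower at an unadjusted p under 0.05. DESeq2 on mouse sums called 1 of 7 higher (Ms4a7), close to its share of 10.6% over all tested genes. Mrc1, the mannose receptor CD206, had 62.7, 71.4 and 69.6 CPM at 22m, against 51.2, 58.9 and 70.3 CPM at 5m, a difference of 0.18 on the log2 scale (standard error 0.10, adjusted p = 0.275). Cd163, the receptor for haptoglobin-hemoglobin complexes, had 4.23, 2.73 and 2.61 CPM at 22m, against 7.34, 4.74 and 3.78 CPM at 5m. In each batch the 22m values were under those of 5m, but the mice overlapped between batches and the log2 fold change of -0.71 (standard error 0.26) had an adjusted p of 0.132. Ms4a7, a membrane protein of macrophages, was the gene with the smallest p here, with 76.6, 80.0 and 94.6 CPM at 22m against 32.1, 44.4 and 79.5 CPM at 5m (log2 0.77, adjusted p = 0.0709). It resembled the leukocyte genes above, in that 5m mouse 3 reached the 22m range. Folr2, F13a1, Pf4 and Lyve1, all at 12.6 CPM or less in every mouse, had log2 fold changes of -0.36, -0.17, 0.13 and 0.35 with adjusted p from 0.201 to 0.634.

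Of the microglia identity genes, Tmem119 was called. This membrane protein, a marker of resident microglia in the brain, had 47.9, 53.1 and 45.0 CPM at 22m, against 35.3, 40.2 and 36.3 CPM at 5m. The ages did not overlap and 5m mouse 3 was not raised, and Tmem119 was higher by 0.38 on the log2 scale (standard error 0.08, adjusted p = 0.0485). P2ry12, the ADP receptor of surveying microglia, had 4.71, 6.55 and 7.04 CPM at 22m, against 3.84, 3.75 and 4.75 CPM at 5m. Its log2 fold change was 0.57 (standard error 0.17, adjusted p = 0.0963), and 22m mouse 1 was just below 5m mouse 3. P2ry12 lies within the span of Med12l, another tested gene, and the strand setting of the counting is not given in the sources used here. Sall1, a transcription factor of microglia, had 2.88, 6.41 and 4.34 CPM at 22m, against 6.20, 4.22 and 1.79 CPM at 5m. Eyes of 1 mouse differed in it by a median of 2.70 on the log2 scale, the most of the 39 genes, and its left and right eyes held 120 and 11 raw counts in 5m mouse 1 and 88 and 1 in 5m mouse 2. No direction can be read from it. Siglech, a lectin of microglia and plasmacytoid dendritic cells, stood at 1.31, 0.955 and 0.869 CPM at 22m and 1.28, 0.332 and 1.30 CPM at 5m, and had too few counts for the test.

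Gpnmb, Lgals3 and Spp1 rise together in phagocytes that clear lipid or debris in other tissues, and here edgeR called Spp1 alone of the 3, as lower. DESeq2 on mouse sums also called Gpnmb and Lgals3 higher, and both had an unadjusted p under 0.05 by edgeR. Gpnmb, a lysosomal glycoprotein that pigment cells also make, had 1958, 1936 and 2056 CPM at 22m, against 1273, 1209 and 1735 CPM at 5m. The ages did not overlap, and the log2 fold change was 0.52 (standard error 0.12, adjusted p = 0.0623). Lgals3, the galactose-binding galectin-3, had 157, 173.9 and 212.2 CPM at 22m, against 71.6, 83.5 and 198 CPM at 5m, a log2 fold change of 0.76 (adjusted p = 0.0836). Spp1 encodes osteopontin, a secreted phosphoprotein, and had 175.4, 192.3 and 277.5 CPM at 22m, against 235.9, 250.7 and 420.3 CPM at 5m. Within batch 1 and within batch 2 every 22m mouse was below those of 5m. Across batches 22m mouse 3 overlapped 5m mice 1 and 2, and the log2 fold change was -0.47 (standard error 0.08, adjusted p = 0.0366).

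Counted by overlap, every 22m mouse was above every 5m mouse in CPM for 11 of the 38 tested genes (28.9%), against 6.19% of all tested genes, and below for 0 of 38, against 6.6%. The 11 were Csf2ra, Ptprc, Laptm5, Mpeg1, Lyz2, Fcer1g, Trem2, Clec7a, Itgax, Tmem119 and Gpnmb. In the deposited normalized values, which the authors had corrected for batch, the ages were apart in 21 genes above and 3 below (Spp1, Cd163 and Folr2), against 23% and 23.8% of all tested genes. The count of calls depends on the test. The mouse numbers follow the batches, and with the number as a replicate block edgeR called 3 genes higher (Itgax, Tmem119 and Clec7a), against 4.53% of all genes, and 1 lower, against 1.29%. DESeq2 on the same mouse sums called 19 higher, against 10.6% of all genes, and 1 lower, against 6.07%. Over 19 alternative settings, Itgax was called higher in 13, Clec7a in 12, Ptprc and Csf2ra in 11, and Tmem119 and Lyz2 in 9, and Spp1 was called lower in 10. The settings are not separate checks. Several take each eye as a sample, and the fits without mouse 3 of either age both leave only batch 1 to the age term.

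The difference between the ages was smaller in batch 2 for most of the genes, which is a description, since batch 2 held 1 mouse per age. Within batch 1, with 2 mice per age, the median log2 difference of the 38 genes was 0.76, and within batch 2, with 1 mouse per age, it was 0.09. In the same comparison the medians of all tested genes were 0.0022 and -0.02. The 5m mice of the 2 batches lay farther apart than the 22m mice did. 5m mouse 3 was above the mean of 5m mice 1 and 2 in 32 of 38 genes (84.2%), against 50.7% of all tested genes. The median difference was 0.82 on the log2 scale, against 0.0097 over all tested genes. 22m mouse 3 was above the mean of 22m mice 1 and 2 in 26 of 38 genes (68.4%), against 51.0% of all tested genes. Here the median difference was 0.15, against 0.016 over all tested genes. A term for the interaction of age and batch was chosen after seeing this in the same values, and takes the spread of the lone mice of batch 2 from batch 1, so it is no separate evidence. By edgeR with 2 residual degrees of freedom 0 of 38 genes had an adjusted p under 0.05 for it (smallest 0.176), and 22 of 38 had an unadjusted p under 0.05 with a smaller difference in batch 2, against 9.37% of all tested genes. For Itgax the difference was 1.71 in batch 1 and 0.83 in batch 2, for Lyz2 1.58 and 0.44, for Ptprc 1.09 and 0.34, and for Itgam 1.19 and -0.10. Tmem119 (0.42 and 0.31), P2ry12 (0.55 and 0.56) and Spp1 (-0.40 and -0.60) differed little between the batches. Without mouse 3 of either age only batch 1 bears on the age difference, and then 23 genes were called higher, against 12.1% of all genes without 22m mouse 3 and 12.2% without 5m mouse 3, and 1 lower, against 8.9% without 22m mouse 3. Leaving out 22m mouse 1, 22m mouse 2 or 5m mouse 2 left 0 genes called higher, against 0.0281%, 0.00703% and 0.549% of all tested genes, so that nearly all calls were lost in the whole table too. Leaving out 5m mouse 1 left only Itgax, against 2.35% of all tested genes. In these 4 fits 19 to 20 genes were higher and 1 to 2 lower at an unadjusted p under 0.05. The share of all tested genes at that threshold was not counted for them.

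**Figure D4:**
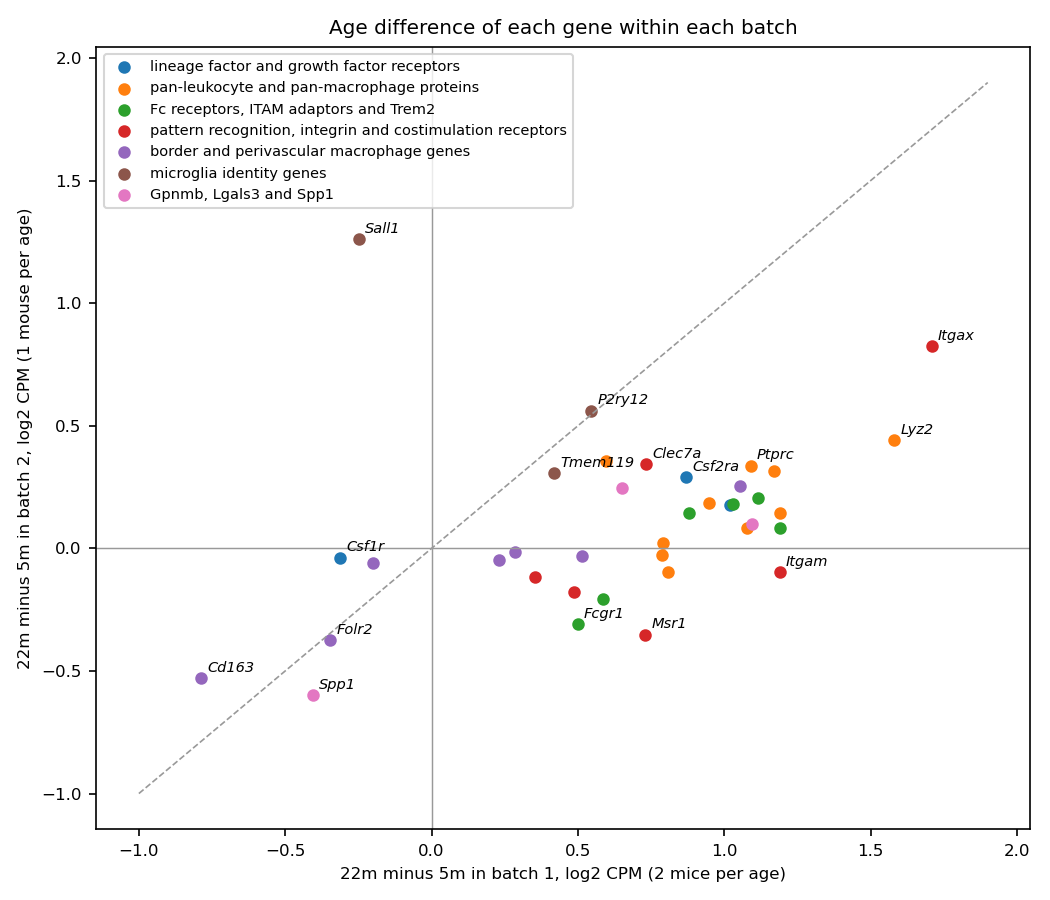
Difference of 22m minus 5m in log2 CPM for each tested gene within batch 1 (x axis, 2 mice per age) and batch 2 (y axis, 1 mouse per age), colored by role, with equality dashed. Most points lie well right of 0 and under the dashed line, as Itgam at 1.19 and -0.10 does, while P2ry12 sits on the line.

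Other genes of the same pathways leaned the same way. Their counts of calls stand against 5.41% of all tested genes called higher and 2.26% called lower, and 1 of 12 genes (8.33%) is close to that share. Among other microglia and complement C1q genes, 4 of 11 tested were called higher and 0 lower, with a median log2 fold change of 0.59. They were Cx3cr1, the fractalkine receptor of microglia (log2 0.81, adjusted p = 0.0254), Gpr34, a lysophospholipid receptor (0.86, adjusted p = 0.0280), Ctss, a lysosomal protease of antigen-presenting cells (1.13, adjusted p = 0.0332), and Olfml3 (0.45, adjusted p = 0.0499). Cx3cr1 had 40.1, 46.2 and 47.6 CPM at 22m, against 24.5, 21.6 and 31.1 CPM at 5m, without overlap. The genes of the C1q chains, C1qa, C1qb and C1qc, had log2 fold changes of 0.58, 0.65 and 0.59 and were not called. Of the ligands, other receptors and transcription factors around the CSF receptors, 1 of 12 was called higher and 0 lower (median 0.35). It was Csf2rb, the signaling chain shared by the receptors for GM-CSF, IL-3 and IL-5, with 23.2, 24.1 and 18.8 CPM at 22m, against 8.76, 10.8 and 14.0 CPM at 5m (log2 0.99, adjusted p = 0.0444). It shares reads with its close copy Csf2rb2 to an unknown extent. The ligands of Csf1r, Csf1 and Il34, had log2 fold changes of 0.0019 and -0.06 and were not called.

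Of the signaling proteins downstream of Tyrobp and Fcer1g, 3 of 13 tested genes were called higher and 0 lower (median 0.63). These were Inpp5d, the inositol phosphatase SHIP1 (log2 0.65, adjusted p = 0.0444), and the adaptors Lcp2 (0.70, adjusted p = 0.0450) and Lat2 (0.86, adjusted p = 0.0485). Of the phagocyte oxidase and leukocyte cytoskeleton, 1 of 12 was called higher and 0 lower (median 0.62), namely Cybb, the catalytic subunit of the oxidase, with 168, 164.4 and 154.6 CPM at 22m against 68.6, 78.0 and 121.4 CPM at 5m (log2 0.90, adjusted p = 0.0444). The 3 mice of 22m were close to each other and above all of 5m. Genes of damage-associated microglia had a median of 0.10, and by edgeR 0 of 12 were called, with 2 higher and 2 lower at an unadjusted p under 0.05, while DESeq2 on mouse sums called 2 higher. Itgax, Clec7a, Trem2 and Tyrobp, also known from that state of microglia, are among the 39 genes and not counted here. Cst7, a cystatin of the same state, had too few counts for the test, with 1.31, 1.41 and 2.26 CPM at 22m against 0.521, 0.379 and 0.528 CPM at 5m and no overlap. The smallest p was that of Igf1, a growth factor (log2 0.36, adjusted p = 0.0605). Apoe, an apolipoprotein, was at 2132, 2549 and 5957 CPM at 22m and 1938, 2144 and 6205 CPM at 5m, higher in both mice of batch 2. Over all mice, Ctsd, Apoe and Ctsb of this list had means of 3609, 3487 and 1894 CPM, against 35.2 CPM for Cx3cr1. Fabp5 (31.6 CPM) and Ccl6 (17.1 CPM) were not so high. Which cells this RNA came from was not tested, so the median of the list cannot be read for microglia alone. With the mouse number as a replicate block, calls fell to 3 of 11 in the microglia and C1q list and to 0 in the CSF, signaling and oxidase lists, so that Csf2rb, Inpp5d, Lcp2, Lat2 and Cybb were no longer called. DESeq2 on mouse sums called 8 of 11, 2 of 12, 6 of 13 and 6 of 12 genes of these 4 lists, all higher, against 10.6% of all tested genes. A count of 2 of 12, in the CSF list and in the damage-associated list, is close to that share. These lists and the 39 genes were read from the same libraries, so their lean is not separate evidence.

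Markers of other cells also differed between the ages, RPE markers downward and rod markers upward. The RPE markers held 12599, 18296 and 36223 CPM in sum at 22m and 27563, 32766 and 43401 CPM at 5m, so the labelled cell type was present throughout but its RNA stood lower at 22m within each batch. Their median log2 fold change was -0.69, at -0.996 within batch 1 and -0.22 within batch 2. By edgeR 2 of 12 were called lower (Tyrp1 and Pmel), 10 of 12 were lower at an unadjusted p under 0.05, and DESeq2 on mouse sums called 10 lower. Rpe65, the isomerase of the visual cycle, had 1184, 1831 and 4582 CPM at 22m against 3171, 3559 and 5258 CPM at 5m (log2 -0.84, unadjusted p = 0.0218, adjusted p = 0.107). Of 12 rod photoreceptor markers 11 were called higher and 0 lower (median log2 1.64), and their sum was 17257, 13982 and 2928 CPM at 22m against 4101, 3551 and 1626 CPM at 5m. With each eye as a sample and its rod score as a covariate, the median of the 38 genes was 0.70 and 3 were called higher (Itgax, Ptprc and Clec7a), against 0.942% of all tested genes. The same fit on eyes with no covariate had a median of 0.52 and called 21 higher, against 11.9% of all tested genes, so the covariate took away most calls here and in the whole table. Leaving out the 3 libraries whose rod score lay farthest from the median, a choice made after seeing the data, the median was 0.71 and 9 were called higher, against 3.09% of all tested genes. In the fits on eyes, the median of the border macrophage genes was -0.44 with the rod covariate and 0.15 without it. The part of the lower RPE RNA in the differences of the macrophage genes was not tested.

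Markers of some other blood-derived cells were also higher at 22m. Of 8 mast cell markers, 5 were tested and all 5 were called higher, with a sum over the list of 64.7, 63.3 and 243 CPM at 22m against 15.3, 14.0 and 13.6 CPM at 5m, so mast cell RNA was raised in all 22m mice and most in mouse 3. Tpsb2, a mast cell tryptase, had 63.4 CPM in 22m mouse 3, more than members such as Csf2ra and Spi1 had there. Of 9 T and NK cell markers 4 were tested, and Cd3e and Cd8a were called higher, both at 6.50 CPM or less in every mouse. Lck was fitted higher (log2 1.97, adjusted p = 0.0511 by edgeR) and was not called. Cd4 went the other way, with a mean of 13.8 CPM at 22m against 18.4 CPM at 5m (log2 -0.43, adjusted p = 0.220), and was not called. Of 6 B and plasma cell markers 1 was tested and 0 called by edgeR, with 1 higher at an unadjusted p under 0.05 and 1 called higher by DESeq2 on mouse sums. Of 7 dendritic cell markers 5 were tested and 0 called by edgeR or by DESeq2 on mouse sums, with 1 higher at an unadjusted p under 0.05, and the list summed to 21.4, 24.9 and 25.3 CPM at 22m and 24.2, 22.1 and 19.3 CPM at 5m.

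Hemoglobin moved with the batch, and neutrophil genes were high in 1 mouse of 5m. Monocyte and neutrophil markers, 3 of 10 tested and 0 called by edgeR, at an unadjusted p under 0.05 or by DESeq2 on mouse sums, summed to 30.1, 27.5 and 44.9 CPM at 22m and 24.1, 17.6 and 67.6 CPM at 5m. S100a8 and S100a9, the calprotectin genes of neutrophils, were at 12.4 and 18.4 CPM in 5m mouse 3 and at 1.91 CPM or less in each of the other 5 mice. The hemoglobin gene Hba-a1 was at 25.5 CPM in 22m mouse 3 and 26.9 CPM in 5m mouse 3, and at 0.0474 CPM or less in the 4 mice of batch 1. The part of mast cells or blood in the differences of the macrophage genes was not tested. Of the 39 macrophage and microglia genes, 32 were highest in mouse 3 among the 3 mice of 5m. Among the 3 mice of 22m, 22 were highest in mouse 3, the other mouse of batch 2. The same count over all tested genes was not made. Of the other lists, 0 of 10 endothelial markers were called by edgeR (DESeq2 on mouse sums called 1 lower, and 4 were lower at an unadjusted p under 0.05), 1 of 7 Mueller glia and astrocyte markers was called higher, and 4 of 6 choroidal melanocyte and Schwann cell markers were called lower (5 by DESeq2 on mouse sums). No marker of any of these lists was at 0 in all 6 mice.

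Eyes of 1 mouse differed less in most of these genes than in Sall1. Over the 39 genes, the median of the left and right difference within a mouse was 0.28 on the log2 scale, from 0.083 for Cd14 to 2.70 for Sall1. The mean log2 CPM of the 38 tested genes ran from 4.95 to 5.60 over the 6 eyes at 22m and from 4.48 to 5.27 over the 6 eyes at 5m. The 2 highest eyes at 5m, at 5.27 and 5.26, were both those of mouse 3, and the lowest at 22m, at 4.95, was the right eye of mouse 1, which also had the highest rod score of all libraries (9.91).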

How the data were processed

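Stranded total RNA libraries were made from the RPE of each eye of 3 22m and 3 5m mice. Per the study's methods and the submitters' notes, the authors used FastQC for quality, Trimmomatic for trimming, HISAT2 for alignment to mm10 and featureCounts for gene counts. For their versions, and for the use of strand in counting, nothing was found (not given in the sources used here). In the deposited raw table are these counts. The deposited batch-corrected table holds ComBat-seq output of the authors, treated here as estimated counts. The deposited normalized table holds a signal for each gene, which is that output divided by the authors' DESeq2 size factors. Raw counts summed to 21495160 to 23674172 per 22m mouse and 20853656 to 26266140 per 5m mouse. RefSeq annotation of GRCm38.p6 gave symbols for 25275 of the 27179 gene IDs.

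Raw counts of both eyes were summed per mouse, since eyes of 1 mouse are not independent. The 14219 genes whose deposited normalized values averaged 20 or more were tested with edgeR 4.0.16 in R 4.3.3 (quasi-likelihood, TMM, batch and age, 3 residual degrees of freedom) and adjusted by Benjamini-Hochberg over all of them. The standard error is the size of the log2 fold change over the root of F. CPM is on the TMM scale, and log2 CPM used a prior count of 1. Alternatives used DESeq2 1.42.0, limma 3.58.1, other filters, single eyes, omitted mice or libraries, and a covariate for rod RNA. The fit was tested on simulated data.

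The 39 genes and all lists were chosen with earlier results of these data known. Values per mouse are given for each called gene, the first 2 genes of each role and the gene of smallest p in a role without a call. Of each pathway list, up to 4 called genes or the 1 of smallest p are named. Others named, such as Lyz2, Mpeg1, Trem2, the C1q genes and Apoe, were picked after their values were seen. Across genes, mice of the same number deviated together from the means of their ages (r = 0.77, 0.61 and 0.85), but differently numbered mice of batch 1 also did (0.52 and 0.61). The labels put same-numbered mice in the same batch, and the numbers were used as a block in 1 alternative.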

Additional observations from a re-analysis of the deposited data

Results flagged for a closer look

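In 10 of 78 sets of 6 libraries (39 genes at 2 ages), 1 library lay apart from the other 5 by Dixon's criterion at 95%, and chance flags about 1 set in 20. Values are deposited normalized counts. At 22m, Csf1r was lowest in the right eye of mouse 1 (2507), Lyve1 highest in the right eye of mouse 2 (54.3) and Siglech highest in the right eye of mouse 1 (23.3). At 5m, 1 library, the right eye of mouse 3, was the highest for Cd52 (158.8), Cd53 (645.5), Cd68 (1235), Coro1a (321), Csf2ra (263), Lgals3 (1777) and Trem2 (676). These 7 genes come from the same library, so the 7 are not separate events. In CPM of raw counts, before batch correction, both eyes of 5m mouse 3 were above every other 5m library for these genes except Csf2ra. Cd68 had 105.2 CPM in the left and 129.1 CPM in the right eye of that mouse, against 65.1 CPM or less in the other 5m libraries. For Csf2ra the right eye of 5m mouse 3 (17.9 CPM) was under the left eye of 5m mouse 1 (18.9 CPM).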

How the results depend on the processing

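The median log2 fold change of the 38 genes stayed above 0 in all 19 alternatives, between 0.48 and 0.76, but the number of calls did not hold. Genes called higher (5) and lower (1), with all tested genes called higher (769) and lower (321), became 19 and 1, with 1502 and 863, in DESeq2 on mouse sums. They became 21 and 1, with 1695 and 1263, in edgeR on eyes, which a rod covariate lowered to 3 and 0, with 134 and 60. They became 19 and 1, with 1572 and 1183, in voom on eyes, and 21 and 2, with 1949 and 1374, in DESeq2 on batch-corrected eyes. With no batch term they were 0 and 0, with 2 and 0. With the mouse number as a replicate block they were 3 and 1, with 644 and 183. Left eyes alone gave 1 and 0, with 111 and 67, and right eyes alone 0 and 0, with 9 and 3. Leaving out the 3 libraries of extreme rod score gave 9 and 0, with 439 and 226. With each mouse left out in turn, genes called higher ranged from 0 to 23 and lower from 0 to 1, and all tested genes called ranged from 1 to 1729 higher and from 0 to 1266 lower. The high ends are those without mouse 3 of either age, where 1 batch is left to the age term. Otherwise the cause was not tested. DESeq2 size factors, no filter and edgeR's filter left 5 and 1. The last 2 exchanged Tmem119 for Lyz2.

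Direction turned in 5 uncalled genes. Csf1r was at 0.0025 in left eyes and 0.040 on eyes with the rod covariate. Lyve1 was at -0.33, -0.45 and -0.10, Pf4 at -0.26, -0.13 and -0.058, and Sall1 at -0.97, -0.87 and -0.47, in left eyes, on eyes with the rod covariate and without the 3 libraries. On eyes with no covariate these 4 had the sign given by mouse totals. With each mouse left out in turn, Sall1 ranged from -0.17, without mouse 3 of either age, to 0.70. F13a1 was at 0.030 in right eyes and ranged from -0.30 to 0.020, the last without 5m mouse 1. With 3 mice per age and 1 per age in batch 2, a gene of few counts such as Siglech or Sall1 could not be resolved.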
